A study of Homo sapiens with 15 samples.

Results

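The comparison set MV4-11 cells kept for 24 h with DW71177 at 300 nM against the same cells kept for 24 h with the vehicle DMSO. MV4-11 is an established human acute myeloid leukemia line of monocytic type, grown here in RPMI1640 with serum, and it carries in every group a KMT2A-AFF1 fusion and an internal tandem duplication of FLT3. The members were chosen by the sample titles alone: 3 arrays titled DW71177 and 3 titled DMSO, 6 of the 15 arrays in the study. The other groups, with 3 arrays each at 24 h, received DW71374 (300 nM), OTX015 (300 nM) or RVX208 (5 uM). The last was used at another dose and is not compared here. DW71177 and DW71374 are known here by their code names, and the labels describe the compounds as BET inhibitors. The readout was the log2 signal of 14812 named genes on a whole-transcript array, with 1 feature per gene. A single line, a single dose and a single time were used. Per the labels the wells were in triplicate, with nothing on whether cultures were independent, so every p-value reflects array-to-array spread that may be of technical origin.

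BET proteins, such as BRD2 and BRD3, bind acetylated lysines on histones through their bromodomains and bring the kinase complex P-TEFb, made of CDK9 and a cyclin T, to promoters and enhancers, where it releases paused RNA polymerase II. BET inhibitors fill the acetyl-lysine pocket and displace the proteins from chromatin. In leukemia cells with a KMT2A fusion, MYC and BCL2 are classical genes lost on BET inhibition, and HEXIM1, which holds P-TEFb in an inactive complex, is the classical gene gained.

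Replicate arrays correlated across genes at 0.992 to 0.994 for DW71177 and at 0.995 for DMSO. The first principal component of the 6 arrays held 53.6% of the variance, with the DMSO arrays at -16.56 to -16.02 and the DW71177 arrays at 14.86 to 18.19. Myeloid identity was checked with 5 measured markers. In DMSO, LYZ (lysozyme) stood at a mean log2 signal of 11.1, FLT3 at 9.80, SPI1 at 7.66, CD4 at 6.76 and MPO at 4.59. Of 14 measured markers of lymphoid, erythroid, megakaryocytic, epithelial and stromal cells, with DMSO means from 2.64 to 7.74, 13 did not pass the test and only NKG7 changed (7.46 in DMSO and 6.63 with DW71177, limma adjusted p = 1.1e-05). RNA from a mixture cannot separate fewer cells of a type from less RNA per cell, and a change shared by all genes may not be visible in arrays with near-identical quartiles.

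DW71177 changed about as many genes upward as downward, and the largest changes were losses. Of the 14812 genes, 1474 (9.95%) were called higher and 1463 (9.88%) lower than in DMSO, together 19.8%, at a limma adjusted p under 0.05. The 3 DW71177 arrays lay wholly above or wholly below the 3 DMSO arrays for 1457 and 1438 of these calls, and for 32.6% of all genes. Most changes were small: the median fold was 1.30 among the higher and 1.32 among the lower genes, and 478 and 463 of them were under 1.25-fold. At least 2-fold changes were 27 upward and 62 downward, and 1.5-fold changes 261 and 326. The median difference over all genes was -0.01 on the log2 scale.

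The share of genes called depended on signal strength. It was 2.80% of genes with a mean log2 signal under 4, 24.6% between 5 and 6 and 51.7% between 8 and 9, but 43.4% at 9 and above. Among the 4524 genes at 6 and above, 21.2% were called higher and 22.6% lower, and these shares are the nearer background for gene lists made of well detected genes. Several lists described below stood near or under the 43.9% called in all at that level. Among these were fatty acid synthesis (44.4%), serine synthesis and amino acid stress (42.9%), BET proteins and P-TEFb (37.5%), MYC network (36.4%), RNA helicases (34.0%) and chemotactic receptors (31.25%). Others are given with their shares below. Of the 16 chemotactic and lipid receptors, 10 had both group means under 5, so for them the 43.9% is not a background of like level. By gene type, 23.2% of 11910 protein-coding genes were called, 6.85% of 1387 long noncoding RNAs and 3.23% of 1022 microRNA genes.

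**Figure D1:**
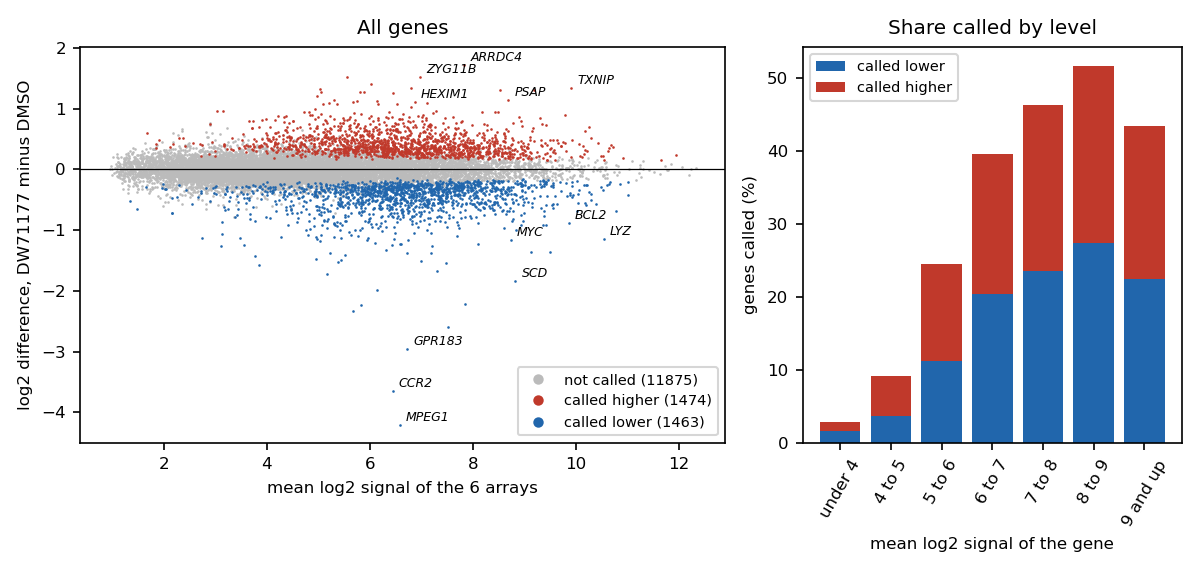
Left, each point is 1 of 14812 genes, with its mean log2 signal over the 6 arrays on the x axis and the log2 difference, DW71177 minus DMSO, on the y axis; red and blue mark the 1474 genes called higher and the 1463 called lower. Right, bars give the percentage of genes called in each class of mean log2 signal, rising from 2.80% under 4 to 51.7% between 8 and 9, with 43.4% at 9 and above; the falls reach -4.20 and the rises 1.72.

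The genes closest to the BET pathway moved as a pair of opposites. MYC, the transcription factor that drives growth genes, read 9.31, 9.29 and 9.35 in the DMSO arrays and 8.22, 8.08 and 8.16 in the DW71177 arrays. HEXIM1, the inhibitor of P-TEFb, read 6.28, 6.28 and 6.39 in DMSO and 7.51, 7.38 and 7.39 with DW71177. For both genes the groups were far apart and did not overlap. MYC fell by 1.16 on the log2 scale (± 0.0538, SE of the fit, limma adjusted p = 9.2e-09), a 2.24-fold drop, and HEXIM1 rose 2.16-fold (1.11 ± 0.0682, adjusted p = 1.3e-07). A second, dimmer HEXIM1 feature rose less, by 0.72.

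The rest of the machinery around them changed little. BRD2, the BET protein measured beside BRD3, rose 1.21-fold (0.27 ± 0.0583, adjusted p = 0.0039). BRD3 (0.09, adjusted p = 0.40) did not pass, nor did any of the 3 kinase complex members CDK9, CCNT1 and CCNT2 (-0.10 to 0.07). In the inhibitory complex MEPCE, the capping enzyme of 7SK RNA, fell 1.17-fold (adjusted p = 0.010), whereas HEXIM2 read 4.16 in both groups. Of 8 measured genes of this list, 2 were called higher and 1 lower.

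MYC's partners and antagonists were also mostly flat, with 2 of 10 higher and 1 lower. MXD1, which competes with MYC for its partner MAX and represses the same sites, rose 1.57-fold (0.65 ± 0.0692, adjusted p = 1.6e-05). Its relative MXD4 rose 1.24-fold (adjusted p = 0.048), and MGA, a large MAX partner, fell 1.21-fold (adjusted p = 0.0055). The glucose sensors MLXIP and MLXIPL did not pass.

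The largest losses were a gene of macrophages and receptors that guide white cells. MPEG1, the pore-forming perforin-2 of macrophages, read 8.65, 8.65 and 8.75 in DMSO and 4.53, 4.59 and 4.31 with DW71177. CCR2, the receptor for the monocyte attractant CCL2, read 8.20, 8.29 and 8.31 in DMSO against 4.44, 4.74 and 4.66. GPR183, the oxysterol receptor that positions immune cells, read 8.14, 8.14 and 8.29 against 4.95, 5.44 and 5.32. Every DW71177 array was well below every DMSO array for these 3 genes. The largest falls and rises were chosen among called genes without overlap, so their separation was a condition of the choice. The falls were 18.4-fold for MPEG1 (-4.20 ± 0.103, adjusted p = 1.4e-11), 12.5-fold for CCR2 (-3.65 ± 0.0972, adjusted p = 2.7e-11) and 7.75-fold for GPR183 (-2.95 ± 0.108, adjusted p = 8.1e-10). The treated levels of MPEG1 and CCR2 were below 5, where a fold is at best a lower bound.

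Secreted factors and enzymes followed. ENPP2, or autotaxin, which makes the signalling lipid lysophosphatidic acid, read 8.80, 8.79 and 8.85 in DMSO and 6.14, 6.33 and 6.17 with DW71177, a 6.06-fold fall (adjusted p = 1.1e-11). The growth factor IGF1 read 8.88, 9.07 and 8.90 against 6.77, 6.75 and 6.69, a 4.63-fold fall (adjusted p = 5.3e-10). OCSTAMP, a fusion protein of osteoclasts, read 6.76, 6.99 and 6.77 against 3.91, 4.79 and 4.81, with 1 DW71177 array below the other two. ENPP2 and IGF1 were tight within each group, while OCSTAMP kept its separation with a wider spread (-2.34 ± 0.194).

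Others among the 15 largest falls were FCMR, the Fc receptor for IgM (4.67-fold), DTX4, an E3 ligase of the Notch pathway (3.94-fold), the fatty acid desaturase SCD (3.57-fold), the transglutaminase TGM5 (3.30-fold) and SCIMP, an adaptor of Toll-like receptors (3.17-fold). The list closed with the neutrophil attractant CXCL8 (2.97-fold), the methyl-CpG binding repressor ZBTB33, or Kaiso (2.92-fold), the surface peptidase DPP4 (2.87-fold) and thrombomodulin, THBD (2.83-fold). Their adjusted p-values ran from 3.3e-10 for SCD to 0.00050 for CXCL8. CXCL8 read 5.06, 4.32 and 4.51 in DMSO and 3.34, 2.95 and 2.90 with DW71177, scattered but without overlap. Treated means were under 5 for FCMR, TGM5, CXCL8 and DPP4, so their folds are at best lower bounds.

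**Figure D2:**
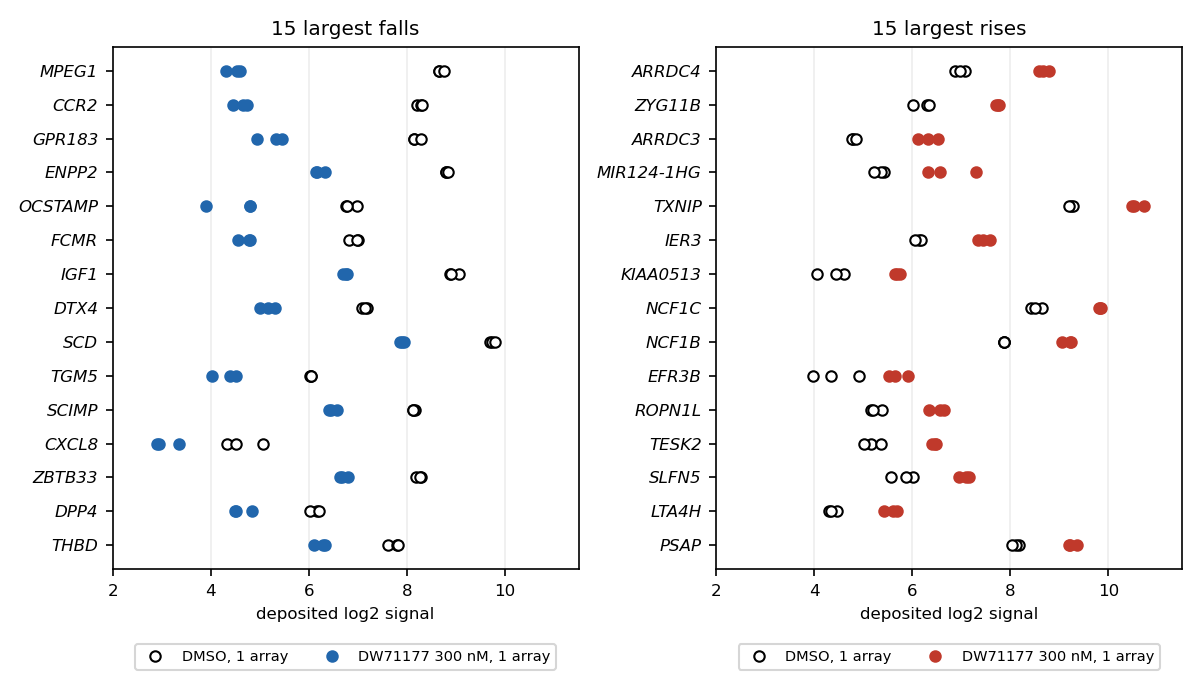
Each point is the deposited log2 signal of 1 array for the 15 largest falls (left) and the 15 largest rises (right) among called genes whose groups did not overlap; open circles are the 3 DMSO arrays and filled circles the 3 DW71177 arrays. Falls range from 18.4-fold for MPEG1 to 2.83-fold for THBD, and rises from 3.29-fold for ARRDC4 to 2.21-fold for PSAP, so the gap between groups is wider on the left.

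Across the whole monocyte and macrophage list the picture was of deep losses in some genes and none in others. The list was chosen with earlier results of these data known. It holds MPEG1, ENPP2, IGF1 and OCSTAMP from the largest falls, so its counts are not separate evidence. Of 21 measured genes, 9 were lower, 2 higher and 10 did not pass (median -0.18). That is 52.4% called, against 19.8% of all genes and 43.9% of those at 6 and above. CSF1R, the macrophage growth factor receptor, fell 2.08-fold (mean 7.02 in DMSO and 5.97 with DW71177), the lectin CD209 2.79-fold, LYZ 2.21-fold and IRF8, a factor of monocyte development, 1.51-fold. CD86, a costimulator of T cells, went the other way and rose 2.18-fold (5.17, 5.19 and 5.22 against 6.24, 6.46 and 6.25, adjusted p = 3.8e-07). CD68, a lysosomal membrane protein, rose 1.30-fold from a high level (means 9.94 in DMSO and 10.32 with DW71177, limma adjusted p = 0.00066). The endotoxin co-receptor CD14 (3.16 and 2.98), CD163 (2.92 and 2.87) and the aminopeptidase ANPEP (3.81 and 3.78) had low signals in both groups and did not pass. FCN1 (5.13 and 5.09), S100A9 (5.09 and 4.95) and KLF4 (4.77 and 4.83) did not pass either.

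Neutrophil granule genes were lower in 4 of 11 and higher in none (median -0.17). The share called was 36.4%, against 19.8% of all genes and 43.9% of those at 6 and above. The serine protease CTSG fell 2.11-fold (5.46, 5.70 and 5.60 against 4.48, 4.71 and 4.34, adjusted p = 2.1e-05), and BPI, which binds bacterial endotoxin, 1.59-fold (adjusted p = 0.00016). MPO fell 1.40-fold and PRTN3 1.19-fold. AZU1 (9.85 and 10.0, adjusted p = 0.079) did not pass, and 7 of the 11 genes had both group means under 5.

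Chemotactic and lipid receptors split by gene, with 4 of 16 lower and 1 higher (median -0.12). Besides CCR2 and GPR183, CCR1, a receptor for CCL3 and CCL5, fell 2.59-fold (adjusted p = 4.5e-09) and CXCR4, which keeps cells in the bone marrow, 1.51-fold (adjusted p = 7.3e-06). FPR2 was the member called higher (adjusted p = 0.0021), from 2.04 to 2.56, with both means under 5. CCR7, CXCR2 and CX3CR1 did not pass. Among pattern recognition and antigen presentation genes, 5 of 17 were lower and 4 higher (median -0.06). That is 52.9% called, against 19.8% of all genes and 43.9% of those at 6 and above. Only 2 of the 17 were antigen presentation genes. CD180, a Toll-like receptor relative, read 10.63, 10.66 and 10.71 against 10.10, 10.09 and 10.08, a 1.49-fold fall in tight groups (adjusted p = 4.0e-06). TLR2 fell 1.26-fold, while TLR5, the flagellin receptor, rose 1.47-fold and B2M, the light chain of MHC class I, 1.33-fold.

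Genes that build ribosomes were lowered almost throughout. Of 36 measured ribosome assembly genes, 30 were lower, none was higher and 6 did not pass, with a median of -0.54 against -0.01 for all genes. All 18 measured factors of pre-ribosome processing were lower (-0.96 to -0.33), as were 9 of 11 factors of nucleolar methylation and assembly and 3 of 7 polymerase I and III genes. MYBBP1A, a nucleolar protein of early ribosomal RNA processing, read 8.01, 7.96 and 7.97 in DMSO and 7.03, 6.99 and 7.05 with DW71177 (1.94-fold, adjusted p = 1.8e-07). NOP16, a late nucleolar assembly factor, read 7.44, 7.30 and 7.36 against 6.25, 6.37 and 6.34 (2.07-fold, adjusted p = 2.8e-06). POLR3G, a subunit of the RNA polymerase that makes transfer RNAs, read 5.75, 6.07 and 5.75 against 4.59, 4.93 and 4.73 (2.15-fold, adjusted p = 4.5e-06). None of these 3 genes overlapped between groups. Nucleolin, NCL, fell 1.34-fold, whereas NOP10 (0.04), GAR1 (-0.10), POLR3B (0.09) and RRN3 (-0.10) did not pass.

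Their promoters often held the E-box CACGTG, the palindrome bound by MYC with MAX and by related factors. RefSeq promoter windows on GRCh38.p14, from 250 bases before to 50 bases after the gene start, were matched for 10736 of the 14812 genes and for 29 of the 36 assembly genes. Both strands were searched. An E-box was present in 14 of the 29 (48.3%), and in 12 of 23 members called lower (52.2%), against 9.03% of all 10736 windows. It was in 14% of windows of all genes called lower, 8.61% of those called higher and 8.37% of those not called. The 15 E-boxes in assembly genes began between -196 and 36 of the start, 13 of them within 100 bases before it or 50 after it. A match describes the letters of the window and not binding.

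The windows of 6 called members show how near the start the motif lay. Each runs 5′ to 3′ on the gene's strand for 30 bases, with the E-box in capitals, and the 6 were chosen after their values were seen, as the members with the lowest differences whose E-box left room for the window.
MYBBP1A: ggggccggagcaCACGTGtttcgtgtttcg
MRTO4: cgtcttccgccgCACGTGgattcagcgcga
LTV1: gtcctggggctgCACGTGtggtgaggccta
NLE1: ctctttctcctcCACGTGgggacgcaggat
WDR43: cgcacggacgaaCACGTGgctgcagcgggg
NOP14: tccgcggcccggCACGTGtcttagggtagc
All begin in the first bases of the transcript, at 28, 15, 29, 13, 4 and 16 after the start. They lie at chr17:4555340-4555369 (minus strand) for MYBBP1A, chr1:19251807-19251836 (plus) for MRTO4, chr6:143843354-143843383 (plus) for LTV1, chr17:35142274-35142303 (minus) for NLE1, chr2:28894658-28894687 (plus) for WDR43 and chr4:2963374-2963403 (minus) for NOP14. MRTO4 and LTV1, which act in large and small subunit assembly, fell 1.80-fold (7.71, 7.71 and 7.66 against 6.90, 6.73 and 6.89) and 1.73-fold (8.45, 8.48 and 8.45 against 7.61, 7.78 and 7.62). NLE1, WDR43 and NOP14 fell 1.65-fold, 1.47-fold and 1.47-fold.

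The finished parts of ribosomes were lowered less evenly. Of 73 mitochondrial ribosomal protein genes, 34 were lower and 1 higher (median -0.17), led by MRPL3 (9.16, 9.18 and 9.22 against 8.38, 8.37 and 8.35, 1.77-fold, adjusted p = 4.9e-07). In all 47.95% of them were called, against 43.9% of all genes at 6 and above. Of 51 cytosolic ribosomal protein genes, 11 were lower and none higher, 21.6% called (median -0.12), close to the 22.6% lower calls among all genes at 6 and above. RPL29 fell 1.67-fold, while RPS28 (12.3 in both groups), RPS15 and RPL12 did not pass. Many of these genes have processed pseudogenes, so their features may share signal with near-identical copies.

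Other genes of protein synthesis were less uniform. Of 17 cytosolic aminoacyl-tRNA synthetases, which charge transfer RNAs, 11 were lower and none higher (median -0.35), among them IARS1 at 1.69-fold (adjusted p = 3.5e-07) and LARS1 at 1.61-fold. Of 47 DEAD and DEAH box helicases, 14 were lower and 2 higher (median -0.09), and those that fell included DDX21 (1.69-fold), DDX56, DDX54 and DHX33, which work in the nucleolus. Of 34 translation factors, 9 were lower and 6 higher (median -0.06), 44.1% called, near the 43.9% among all genes at 6 and above. EIF4EBP1, a brake on cap-dependent initiation, fell 1.68-fold, its relative EIF4EBP2 rose 1.29-fold, and EIF2AK2, the double-stranded RNA sensor PKR, rose 1.71-fold.

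Nucleotide synthesis fell with no gene called higher, in 15 of 21 measured genes (median -0.35). PFAS, an enzyme of purine synthesis, read 7.62, 7.64 and 7.57 in DMSO and 6.72, 6.54 and 6.59 with DW71177 (1.99-fold, adjusted p = 6.8e-07). DHODH, the mitochondrial step of pyrimidine synthesis, read 7.33, 7.46 and 7.30 against 6.62, 6.61 and 6.54 (1.71-fold, adjusted p = 6.2e-06). Neither gene overlapped between groups. CTPS2 (1.77-fold) and DCTPP1 (1.59-fold) fell as well, while RRM2 (8.07 and 8.01), IMPDH2 (9.40 and 9.30) and HPRT1 (7.36 and 7.24) did not pass.

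DNA replication genes were lower in 18 of 22, with none higher and a median of -0.56. All 9 measured origin licensing genes fell (-0.86 to -0.44). CDC6, which loads the MCM helicase at origins, read 7.94, 7.79 and 7.93 against 6.95, 7.10 and 7.02 (1.82-fold, adjusted p = 2.2e-06). The helicase subunit MCM2 averaged 9.05 against 8.35 (1.62-fold, adjusted p = 4.8e-06), and MCM6 fell 1.46-fold. The DW71177 arrays were below the DMSO arrays for all of them. At the fork, 9 of 13 genes were lower, including GINS1 (1.61-fold) and the methylation maintenance factor UHRF1 (1.66-fold), but the sliding clamp PCNA (9.56 and 9.41, adjusted p = 0.062), CLSPN and CDC7 did not pass.

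Of 43 measured mitosis genes, 26 (60.5%) were lower and none higher, with a median of -0.29. The checkpoint kinase BUB1B fell 1.54-fold (adjusted p = 9.5e-06), the mitotic kinase AURKB 1.45-fold and topoisomerase TOP2A 1.36-fold (10.05, 10.04 and 10.06 against 9.63, 9.59 and 9.59). The motors KIF22 and KIF20A fell 1.46-fold and 1.39-fold among 6 of 10 kinesins. BUB3, SMC4 and CKAP2, with differences of -0.04 to 0.09, did not pass.

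Among cell cycle regulators, 17 of 25 were lower and 1 was higher (median -0.38). All 8 kinases and phosphatases fell. CDC25A, the phosphatase that activates CDK2, read 7.35, 7.24 and 7.38 in DMSO and 6.15, 6.23 and 6.13 with DW71177 (2.23-fold, adjusted p = 1.4e-07). CDK6, the cell cycle kinase used by KMT2A-fusion leukemia, read 8.87, 8.84 and 8.80 against 8.19, 8.29 and 8.17 (1.54-fold, adjusted p = 1.0e-05), and CDK4 fell 1.49-fold. RB1, the retinoblastoma protein that CDK4 and CDK6 inactivate, was the gene called higher, at 8.56, 8.65 and 8.58 against 9.30, 9.34 and 9.31 (1.65-fold, adjusted p = 5.6e-07). Within RB1, CDC25A and CDK6 the groups were tight and separate. E2F1 and the RB1 relative RBL1 fell 1.34-fold and 1.46-fold, and CCND3 (0.18, adjusted p = 0.064) and CCNE2 (0.08) did not pass.

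Of 22 measured genes of cholesterol synthesis and uptake, 15 were lower and 1 higher (median -0.44). MSMO1, which removes methyl groups from the sterol ring, read 7.81, 7.80 and 7.89 in DMSO and 6.65, 6.57 and 6.50 with DW71177 (2.39-fold, adjusted p = 1.2e-07). HMGCS1, which makes HMG-CoA, read 6.64, 6.62 and 6.65 against 5.71, 5.79 and 5.52 (1.95-fold, adjusted p = 6.0e-07). TMEM97, the sigma-2 receptor involved in cholesterol transport, read 8.19, 8.26 and 8.27 against 7.18, 7.15 and 7.10 (2.14-fold, adjusted p = 1.7e-07). Each had the 3 DW71177 arrays below the DMSO arrays by a clear margin. DHCR7 fell 2.04-fold and EBP 1.61-fold, while TM7SF2, the sterol reductase outside this pattern, rose 1.41-fold (adjusted p = 0.0014).

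Of the regulators of this pathway, SREBF2, the sterol-sensing transcription factor, fell 1.35-fold (7.78, 7.86 and 7.93 against 7.46, 7.46 and 7.36, adjusted p = 0.00021) and INSIG1, which retains it in the endoplasmic reticulum, 1.62-fold. SCAP (0.05), INSIG2 (0.24) and SREBF1 (-0.20) did not pass. The sterol regulatory element TCACCCCAC was found in 1 of 20 promoter windows of the list, that of SREBF2 itself, and in 0.419% of all windows. The looser TCACNCCAC, which contains the first motif, added no window in the list (1.11% of all). It is shown with the element in capitals, at position -133 relative to the gene start on the plus strand at chr22:41832962-41832991.
SREBF2: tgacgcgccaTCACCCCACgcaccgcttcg

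In fatty acid synthesis 7 of 18 genes were lower, 1 was higher and 10 did not pass, with a median of -0.11. SCD, which puts the double bond into stearate, read 9.70, 9.73 and 9.79 in DMSO and 7.95, 7.91 and 7.86 with DW71177. Fatty acid synthase, FASN, read 8.64, 8.71 and 8.74 against 7.54, 7.52 and 7.37 (2.34-fold, adjusted p = 1.1e-08). Both were tight within groups and far apart between them. ACACA, which makes malonyl-CoA, fell 1.59-fold, the desaturases FADS1 and FADS2 1.72-fold and 1.71-fold, and ACLY 1.21-fold. ACSL1, which activates long-chain fatty acids, rose 1.21-fold, and ELOVL5 (0.02), ACSL4 (-0.12) and DGAT1 (0.05) did not pass.

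Serine synthesis fell at its first steps. PSAT1 read 9.32, 9.33 and 9.33 against 8.24, 8.39 and 8.38 (1.99-fold, adjusted p = 1.6e-07) and PHGDH 5.88, 5.86 and 5.86 against 5.17, 4.96 and 4.82 (1.85-fold, adjusted p = 2.6e-05), whereas PSPH, the last step, read 6.20 in both groups. ATF4, the factor that induces these enzymes, fell 1.25-fold. Of its targets, VLDLR, a lipoprotein receptor, fell 1.59-fold (adjusted p = 2.4e-06), SESN2, a stress-induced inhibitor of mTORC1, rose 1.37-fold (adjusted p = 0.00048), and ASNS, TRIB3, DDIT3, DDIT4 and ATF3 did not pass. In all, 5 of 14 genes of this list were lower and 1 was higher (median -0.09).

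Of 11 polyamine genes, 3 were lower, 4 higher and 4 did not pass, 63.6% called against 43.9% of all genes at 6 and above. Spermidine synthase SRM fell 1.60-fold and spermine synthase SMS 1.28-fold. SAT1, which acetylates polyamines for breakdown, read 4.75, 4.31 and 4.91 in DMSO and 5.66, 5.90 and 5.67 with DW71177 (2.12-fold, adjusted p = 4.3e-05), with no overlap. ODC1, the rate-limiting enzyme of synthesis (9.37 and 9.34), and SMOX, which oxidizes spermine (7.30 and 7.34), did not pass. Glycolysis changed in 4 of 10 genes, 40% called against 43.9% of all genes at 6 and above. HK1 rose 1.36-fold, and GPI (1.32-fold), HK2 (1.32-fold) and LDHB (1.19-fold) fell. Oxidative phosphorylation had 2 of 26 genes lower and 1 higher, 11.5% called, below the 19.8% of all genes. Neither of the 2 measured SLC25 mitochondrial carriers passed (median -0.07).

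The largest rises included 3 alpha-arrestins, adaptors that bring ubiquitin ligases to membrane proteins. ARRDC4 read 6.87, 7.07 and 6.97 in DMSO and 8.59, 8.79 and 8.66 with DW71177, the largest rise of the comparison (3.29-fold, 1.72 ± 0.0685, adjusted p = 2.1e-09). ARRDC3 read 4.79, 4.76 and 4.86 against 6.32, 6.52 and 6.11 (2.86-fold, adjusted p = 1.1e-06). TXNIP, which limits glucose uptake and binds thioredoxin, read 9.23, 9.27 and 9.20 against 10.53, 10.72 and 10.47 (2.53-fold, adjusted p = 3.8e-08). No array of one group entered the range of the other, which the choice of the largest rises required. A second TXNIP feature rose by 1.70. ARRDC5 rose 1.24-fold from a low level (adjusted p = 0.032), and ARRDC1 (0.03) and ARRDC2 (-0.07) did not pass, and 4 of 6 were higher (median 0.82).

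TXNIP and ARRDC4 are known targets of the glucose-sensing factors MLXIP and MLXIPL, which bind a pair of spaced E-boxes. Searched on both strands as a pair of CACGTG 5 bases apart, with 1 mismatch allowed over the pair, it was in none of the 5 alpha-arrestin windows and in 0.0838% of all windows, which says only that these letters are not in these 300 bases. A pair with a mismatch in each E-box would have been missed, so the search cannot show that such an element is absent. A single E-box lay in the ARRDC4 window, at position -210 relative to the gene start on the plus strand at chr15:97960481-97960510, shown in capitals.
ARRDC4: aaacggcctgtgCACGTGcacgccggagcc

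The other leading rises were of mixed function. ZYG11B, a substrate receptor of a cullin ubiquitin ligase, rose 2.87-fold (6.01, 6.30 and 6.35 against 7.71, 7.77 and 7.74, adjusted p = 2.4e-08). IER3, an early gene that affects survival, rose 2.52-fold (6.14, 6.17 and 6.06 against 7.59, 7.45 and 7.34, adjusted p = 1.2e-07). NCF1B and NCF1C, copies of the NADPH oxidase subunit gene NCF1, rose 2.46-fold and 2.47-fold, and since the copies are nearly identical their signals cannot be assigned to one of them. LTA4H, which makes the attractant leukotriene B4, rose 2.30-fold from a DMSO mean under 5. KIAA0513, EFR3B, ROPN1L and TESK2 rose between 2.40-fold and 2.49-fold.

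Of 35 measured lysosome and autophagy genes, 17 were higher, 1 was lower and 17 did not pass (median 0.25). That is 51.4% called, against 43.9% of all genes at 6 and above, of which 21.2% were higher. Of the autophagy genes alone, 33.3% were called. By role, 8 of 15 hydrolases and activators, 4 of 5 membrane proteins and 5 of 15 autophagy genes were higher. PSAP, the precursor of the saposins that help degrade sphingolipids, read 8.17, 8.11 and 8.04 in DMSO and 9.19, 9.21 and 9.35 with DW71177 (2.21-fold, adjusted p = 4.3e-08). GABARAPL2, which coats autophagosomes, read 6.98, 7.16 and 6.98 against 7.83, 7.91 and 7.93 (1.80-fold, adjusted p = 6.0e-07). LAMP2, a lysosomal membrane protein, read 7.90, 7.97 and 7.94 against 8.47, 8.56 and 8.49 (1.48-fold, adjusted p = 6.8e-06). All 3 were separate between groups. The proteases CTSB and CTSD rose 1.68-fold and 1.36-fold, the autophagy receptor SQSTM1 1.39-fold and the regulator TFE3 1.26-fold. The hydrolase PPT1 fell 1.32-fold, and LAMP1 (0.03), CTSA (0.04) and TPP1 (-0.05) did not pass.

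The measured genes of the leukemia program were not lowered as a whole. Of 35 measured genes, 11 were higher and 5 lower (median 0.03), 45.7% called against 43.9% of all genes at 6 and above. Of the higher genes, 8 are in the group of receptors and their output, described below. Only 5 of the 12 listed genes of the HOXA-MEIS1 and stem program were measured, with no HOXA gene among them. MEIS1, the HOX cofactor of KMT2A-fusion leukemia, rose 1.39-fold (6.88, 6.73 and 6.74 against 7.28, 7.41 and 7.09, adjusted p = 0.00083), and SOX4, another gene of that program, fell 1.38-fold. MYB read 8.44 in DMSO and 8.52 with DW71177 (adjusted p = 0.45) and FLT3 9.80 and 9.81 (adjusted p = 0.91), and neither passed. Of 15 hematopoietic transcription factors 12 did not pass, SPI1, IKZF1, GFI1 and ETV6 among them, LMO2 rose 1.45-fold and RUNX2 fell 1.23-fold.

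Growth factor receptors and their outputs, counted together, were higher in 8 of 15 genes and lower in 3 (median 0.21). In all 73.3% were called, against 43.9% of all genes at 6 and above. DUSP6, a phosphatase induced by ERK signalling that shuts ERK off, averaged 7.18 in DMSO and 8.04 with DW71177 (1.82-fold, adjusted p = 5.0e-07). SPRY2, another inhibitor of that pathway, rose 1.84-fold from a low level, and the STAT5 targets PIM1 and SOCS1 rose 1.48-fold and 1.52-fold. The stem cell factor receptor KIT went down, reading 5.28, 5.71 and 5.53 against 4.43, 4.46 and 4.31 (2.15-fold, adjusted p = 1.8e-05). None of these genes overlapped between groups. The brighter outputs EGR1 (9.60 and 9.62, limma adjusted p = 0.94) and PIM2 (7.71 and 7.62, limma adjusted p = 0.37) did not pass. SOCS3 fell 1.28-fold, but a dimmer SOCS3 feature rose by 0.24, so its direction depends on the feature.

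Regulators of cell death changed in both directions, with 7 of 20 higher and 3 lower (median -0.02). The share called was 50%, against 43.9% of all genes at 6 and above. BCL2, which blocks apoptosis, read 10.28, 10.32 and 10.30 in DMSO and 9.44, 9.44 and 9.38 with DW71177 (1.84-fold, adjusted p = 3.3e-08). MCL1, a related survival gene, read 8.12, 8.07 and 8.13 against 8.58, 8.66 and 8.39 (1.35-fold, adjusted p = 0.00062). The pair moved in opposite directions without overlap. The BH3-only genes BCL2L11 (BIM) and BNIP3L rose 1.32-fold and 1.65-fold, whereas PMAIP1 (NOXA) and BIK fell 1.50-fold and 1.46-fold. CFLAR, which holds back caspase-8, rose 1.48-fold and APAF1, the core of the apoptosome, 1.29-fold. Of 7 measured p53 targets 5 were higher and none lower (median 0.37), led by TP53INP1 (5.44, 5.84 and 5.61 against 6.54, 6.82 and 6.74, 2.10-fold, adjusted p = 1.4e-05). SESN2 and CCNG1 rose 1.37-fold and 1.32-fold, and PLK3 (-0.21) did not pass.

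Inflammatory genes were higher in 6 of 20 and lower in 1 (median 0.15). The share called was 35%, against 19.8% of all genes and 43.9% of those at 6 and above. The attractant CCL5 rose 1.78-fold (adjusted p = 2.8e-05), IL18 1.88-fold from a low level, the adhesion molecule ICAM1 1.47-fold and NFKB1 1.34-fold. TNF read 7.96, 8.05 and 7.92 in DMSO and 8.16, 8.31 and 8.43 with DW71177, separate but not past the threshold (0.32 ± 0.154, adjusted p = 0.18). Interferon response genes were higher in 5 of 22 and lower in 2 (median 0.06), with SLFN5 at 2.38-fold (6.01, 5.88 and 5.57 against 7.10, 7.15 and 6.96) and IRF7 at 1.70-fold, while ISG15 (-0.13) and XAF1 (-0.01) did not pass. Immediate-early genes were mixed, 3 of 14 higher and 2 lower, with FOSL1 down 1.81-fold and KLF10 up 1.51-fold. The share called was 35.7% of immediate-early genes, also under the 43.9%, and 31.8% of interferon response genes, against 19.8% of all genes. For the interferon list the 43.9% is not a background of like level. Of its 22 genes, 12 had both group means under 5, and only 9.15% of all genes between 4 and 5 were called.

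Chaperones and stress genes were lower in 7 of 15 and higher in 2 (median -0.19), 60% called against 43.9% of all genes at 6 and above. The mitochondrial chaperones TRAP1, HSPA9 and HSPD1 fell 1.62-fold, 1.47-fold and 1.39-fold, and calreticulin, CALR, 1.35-fold, while the inducible HSPA1A and HSPA1B did not pass. Chromatin modifiers changed in 21 of 39 genes, 13 higher and 8 lower (median 0.06), a share of 53.8% against 43.9% of all genes at 6 and above. Acetyltransferases with related functions diverged. KAT2A (GCN5) read 7.60 in each DMSO array and 6.51, 6.75 and 6.83 with DW71177 (1.87-fold lower, adjusted p = 3.5e-06), and KAT2B (PCAF) read 6.21, 5.99 and 6.21 against 6.85, 6.93 and 6.85 (1.67-fold higher, adjusted p = 4.0e-06). The demethylase KDM7A rose 1.96-fold from a low level, the H3K36 methyltransferase SETD2 1.56-fold and the heterochromatin enzyme SUV39H1 fell 1.46-fold.

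**Figure D3:**
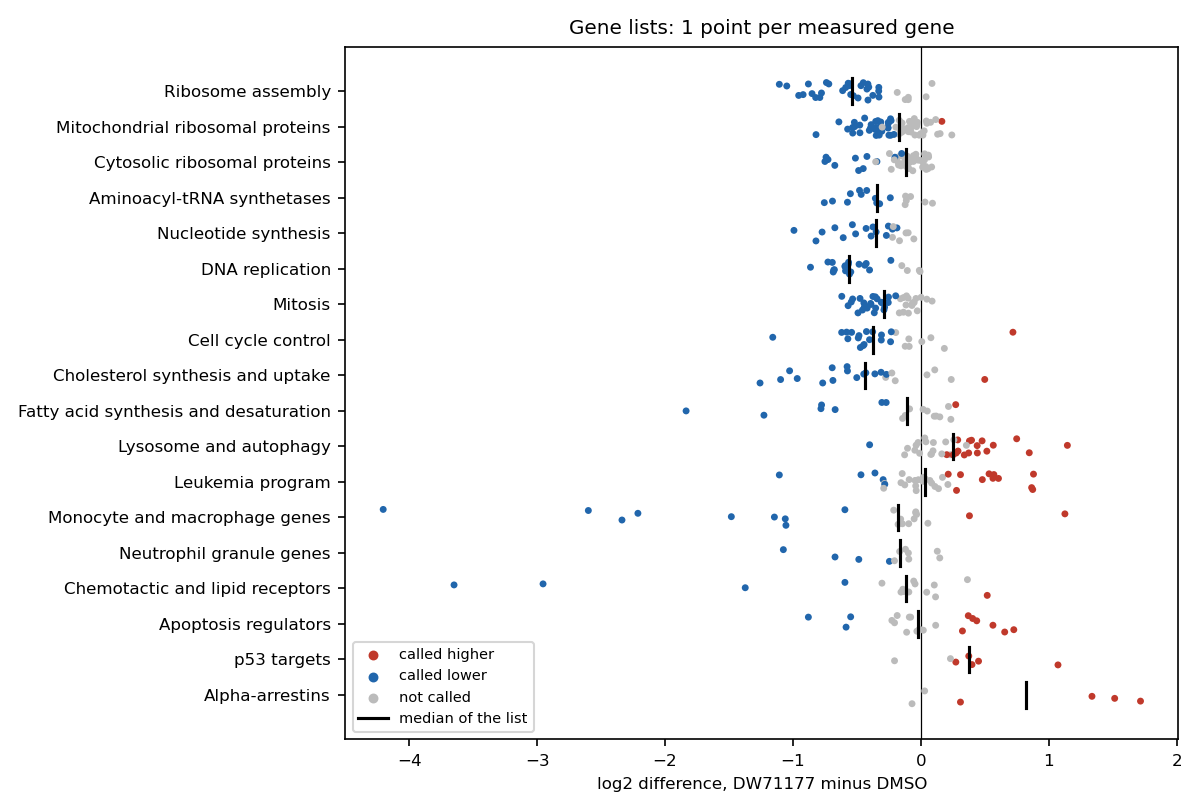
Each point is 1 measured gene at its log2 difference, DW71177 minus DMSO, grouped by gene list; red and blue mark genes called higher and lower, grey those not called, and black bars the list medians. The medians of ribosome assembly (-0.54), DNA replication (-0.56) and cholesterol (-0.44) lie left of 0 and those of lysosome and autophagy (0.25) and alpha-arrestins (0.82) right of it, while the monocyte and macrophage list (-0.18), chosen with earlier results known, holds genes from the largest falls beside genes near 0.

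Of 1022 microRNA genes, 15 were higher and 18 lower (3.23%, median -0.00). Both group means were under 5 for 863 of them, and the share called was near the 2.80% of all genes under 4. The features are named by gene, so the 2 arms of a hairpin are not told apart. MIR223, a microRNA of the granulocyte and monocyte lineage, read 7.04, 6.76 and 6.82 in DMSO and 6.18, 6.27 and 6.05 with DW71177 (1.64-fold lower, adjusted p = 1.4e-05). MIR142, of all blood lineages, read 6.07, 5.85 and 6.09 against 6.63, 7.10 and 6.29 (1.59-fold higher, adjusted p = 0.0082). MIR21 read 3.64, 2.73 and 3.38 against 4.22, 4.18 and 3.76 (1.74-fold higher, adjusted p = 0.021). MIR223 was tight, while the MIR142 and MIR21 arrays were spread more widely, with MIR21 under 5 in both groups. MIR3143 rose most (6.79, 6.79 and 6.81 against 7.86, 7.69 and 7.73, 1.95-fold, adjusted p = 4.1e-06).

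The mature products of the first 3 carry different seeds, and the 44 mature sequences found for 30 of the 33 called microRNA genes held 44 different seeds, so no seed was shared. The seed, bases 2 to 8, is in capitals, and the sequences are RefSeq's on GRCh38.p14.
hsa-miR-223-3p: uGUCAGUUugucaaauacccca
hsa-miR-223-5p: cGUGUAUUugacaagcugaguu
hsa-miR-142-3p: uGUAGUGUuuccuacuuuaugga
hsa-miR-142-5p: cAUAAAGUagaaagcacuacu
hsa-miR-21-5p: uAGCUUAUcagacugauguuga
The hairpins lie at chrX:66018870-66018979 (plus strand) for MIR223, chr17:58331232-58331318 (minus) for MIR142 and chr17:59841266-59841337 (plus) for MIR21.

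Among long noncoding RNAs, 52 of 1387 were higher and 43 lower. LINC00996 fell 2.61-fold (7.39, 7.43 and 7.42 against 5.85, 6.01 and 6.23, adjusted p = 5.0e-07) and VPS9D1-AS1 2.18-fold. MIR124-1HG rose 2.65-fold with 1 DW71177 array, at 7.30 above the others, and LPP-AS2 rose 1.91-fold. For WAKMAR2, 2.19-fold lower at means under 5, a second feature of the gene pointed upward (0.23). Zinc finger genes with ZNF symbols were near the background of all genes, 31 of 471 higher and 45 lower, 16.1% called, with ZNF280C up 1.62-fold and ZNF114 down 2.13-fold.

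DW71374 gave a comparison at the same dose and time that uses no DMSO array. Against DW71374, 1478 genes (9.98%) were higher with DW71177 and 1409 (9.51%) lower, 19.5% of all genes together. Since the same DW71177 arrays enter both comparisons, agreement between them is not independent, and the values are given side by side. MYC was -1.16 against DMSO and -1.13 against DW71374 (adjusted p = 1.3e-08), HEXIM1 1.11 and 1.08 (adjusted p = 1.7e-07), MPEG1 -4.20 and -4.26, CCR2 -3.65 and -3.62, and ARRDC4 1.72 and 1.75. For each of these genes the values were close, so the DW71374 arrays lay near the DMSO arrays there. The 19.5% is therefore not to be read as a difference from a compound that moved these genes. The ribosome assembly list had a median of -0.51 against DW71374 with 31 of 36 lower, DNA replication -0.54 with 19 of 22 lower, and lysosome and autophagy 0.21 with 14 of 35 higher. MIR142 and MIR21, higher than in DMSO, did not pass against DW71374 (0.31, adjusted p = 0.24, and 0.20, adjusted p = 0.65). TNF did (0.81, adjusted p = 0.0016).

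OTX015, or birabresib, which binds both bromodomains of the BET family, was also used at 300 nM for 24 h. Of all genes, 186 differed between the compounds, 159 (1.07%) higher with DW71177 and 27 (0.182%) lower, together 1.26%. The count depended on the model, from 1 gene in a fit of only the 6 arrays of both groups to 593 among genes with a mean of at least 5. It was 106, 71 and 74 without DW71177 replicates 1, 2 and 3, and 80, 139 and 104 without OTX015 replicates 1, 2 and 3. Among the 15 largest falls, 3 were called, all higher with DW71177 than with OTX015: IGF1 (0.64, adjusted p = 0.0030), SCIMP (0.68, adjusted p = 6.1e-05) and TGM5 (0.59, adjusted p = 0.049). OCSTAMP differed by 0.52 (0.11 to 0.94, adjusted p = 0.23) and did not pass. MPEG1 differed by 0.13 between the compounds (95% interval -0.09 to 0.35, adjusted p = 0.66), GPR183 by 0.11 (-0.12 to 0.35), DTX4 by -0.01 (-0.20 to 0.17) and PSAP, among the rises, by -0.04 (-0.17 to 0.09). Other leading rises were called lower with DW71177: NCF1B (-0.41, limma adjusted p = 0.036), NCF1C (-0.34, limma adjusted p = 0.044), and ARRDC4 and IER3, given below. Of genes called lower than in DMSO, 103 were called higher than with OTX015 and none lower. Of those called higher than in DMSO, 17 were lower and 9 higher. A p that misses the threshold does not show that the compounds act alike, and for CCR2 the interval of the difference left out 0 (0.29, 0.08 to 0.50, adjusted p = 0.18).

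The genes closest to the BET pathway were among those that differed. HEXIM1 was lower than with OTX015 by 0.54 (-0.54, interval -0.69 to -0.40, adjusted p = 0.0035) and MYC higher by 0.26 (0.14 to 0.38, adjusted p = 0.037). Against DMSO, OTX015 gave 1.65 for HEXIM1 and -1.42 for MYC, in arrays that share the DMSO controls with the DW71177 comparison. BCL2 was higher by 0.31 (0.21 to 0.41, adjusted p = 0.0080), CSF1R by 0.50 and CD180 by 0.64 (0.53 to 0.75, adjusted p = 6.1e-05). ARRDC4 was the lowest relative to OTX015 (-1.04, -1.19 to -0.89, adjusted p = 1.1e-05), and SAT1 (-0.93), TNF (-0.72, adjusted p = 0.042) and IER3 (-0.64) were lower too.

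By list, 9 of 22 DNA replication genes were higher with DW71177 than with OTX015 and none lower (median 0.28), 6 of them among the 9 licensing genes, with MCM2 at 0.43 (0.29 to 0.57, adjusted p = 0.0080). Of the 25 cell cycle regulators 5 were higher, CDK4 by 0.38. By contrast, 1 of 36 ribosome assembly genes was higher (MRTO4, 0.31, adjusted p = 0.045; median 0.13), 1 of 22 cholesterol genes (TMEM97, 0.42; median 0.05) and none of 35 lysosome and autophagy genes in either direction (median -0.04). The background was 1.26% called among all genes, many of low signal. A separate fit of genes with a mean of at least 5 called 593 of 6736, a larger share. Differences between lists were not tested.

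**Figure D4:**
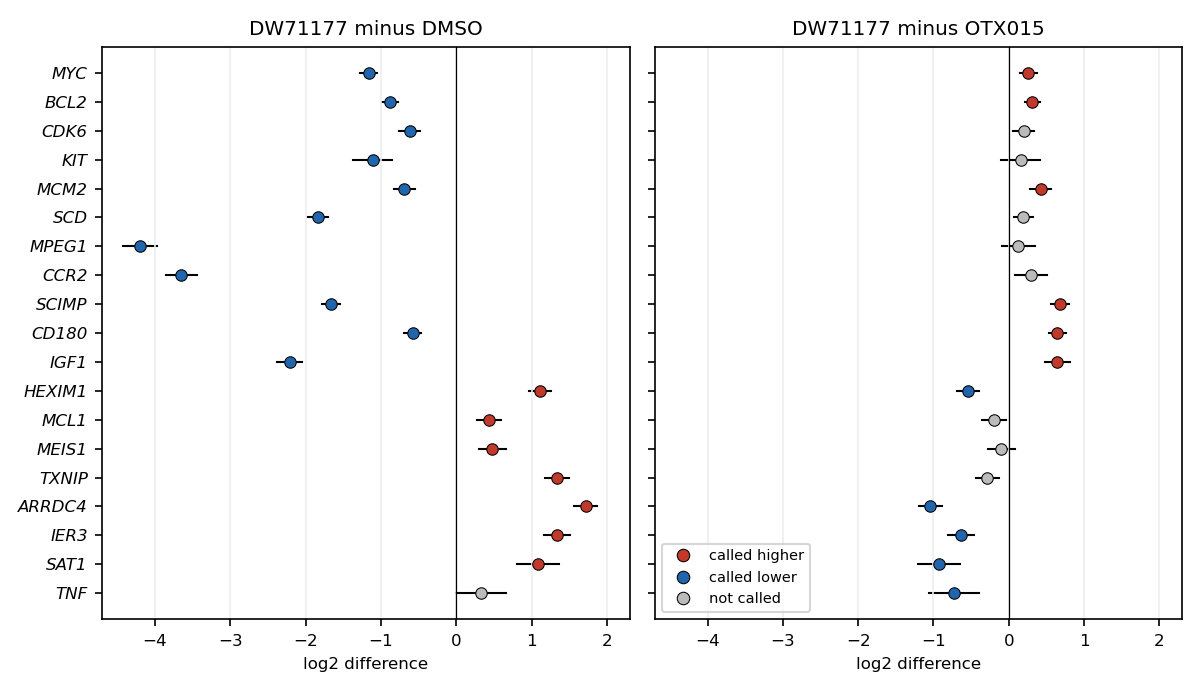
Points are log2 differences of group means for 19 genes, DW71177 minus DMSO (left) and DW71177 minus OTX015 (right), with 95% confidence intervals of the fit as bars; red and blue mark genes called higher and lower, grey those not called. On the right the interval of MPEG1 (0.13) holds 0 and that of CCR2 (0.29) does not, though neither was called, whereas ARRDC4 (1.72 left, -1.04 right), HEXIM1 and SCIMP lie on opposite sides of 0 in the 2 panels.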

How the data were processed

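RNA of MV4-11 cells was measured on 15 whole-transcript Affymetrix arrays, 3 in each of 5 groups, per the labels. The deposited values were read as log2 signals from their range. Array medians lay between 3.72 and 3.79, as after a normalization between arrays, but no label names the scale or such a step. If one was applied, a change shared by all genes would have been removed, so differences are taken as relative to the whole array.

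Of 44629 features, the platform annotation gave 15835 a single gene and 28794 none. The feature of highest mean over 15 arrays stood for each of 14812 genes. Group means were fitted with limma 3.58.1 in R 4.3.3 over all 15 arrays (10 residual degrees of freedom), with two-sided Benjamini-Hochberg adjusted p over the 14812 genes and a threshold of 0.05. The fit was tested on simulated data. Where a group mean was under 5, a level chosen after values were seen in earlier work, a fold is at best a lower bound. The number of arrays limits the precision.

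The comparison, its gene lists and its rules were chosen with earlier results of these data known. Named genes were the 15 largest rises and falls without overlap, up to 6 genes of smallest p and up to 3 that did not pass, by level, in each role of each list (whole roles of up to 8), a fixed set of genes, the leading noncoding RNAs and the leading differences from OTX015. Alternatives changed the arrays fitted, normalization, feature choice, level filter, variance model, array weights, pairing and replicates. RVX208 entered the fit only.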

Additional observations from a re-analysis of the deposited data

How the results depend on the processing

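Against DMSO, the calls ranged over the alternatives that count genes from 1100 to 1689 higher and from 1126 to 1631 lower, MYC from -1.20 to -1.13 and HEXIM1 from 0.916 to 1.15, and both genes were called each time. Without 1 replicate, 1225 to 1384 genes were higher and 1206 to 1366 lower. Against DW71374, 2132 to 3219 genes were called, and 2302 to 2588 without 1 replicate. Against OTX015, where the fit called 186, the count was 118 with array weights, 112 with arrays centred on their medians, 1 with only both groups in the fit, 495 with an intensity trend, 593 among genes with a mean of at least 5, and 71 to 139 without 1 replicate. A fit of all 44629 features counts features, not genes: it called 2050 higher and 2072 lower than in DMSO, 3976 against DW71374 and 79 against OTX015. The cause was not tested. Of 306 called genes among the 510 that the naming rule selected, 271 were called under every one of the 16 alternatives that measured them, and none reversed.

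With the replicate number as a block, 1429 genes were higher and 1420 lower than in DMSO, 2779 were called against DW71374 and 107 against OTX015. Deviations of same-numbered arrays correlated at 0.042, 0.055 and 0.016, each the best for its number but under 0.1, so the arrays were not treated as paired. Over the alternatives other than the level filter, some list counts moved by over 1.5 times: cytosolic ribosomal proteins 8 to 17 lower, ZNF genes 16 to 42 higher and 28 to 50 lower, microRNA genes 9 to 20 higher and 8 to 24 lower, translation factors 3 to 7 higher, p53 targets 3 to 6 higher, polyamine genes 2 to 4 higher, immediate-early genes 1 to 5 higher, oxidative phosphorylation 1 to 6 lower, helicases 0 to 4 higher, apoptosis regulators 3 to 5 lower and inflammatory genes 1 to 3 lower. The other counts that moved so far were of 1 or 2 genes. Low signal limited the calls: 52.9% of genes had both group means under 5, and 325 of these 7832 were called.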

Other observations

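Some small structured RNAs outside the lists were also called. Of 8 measured SNAR genes, short cytoplasmic RNAs present in many near-identical copies, 4 were lower with DW71177 and none higher. Among all genes 9.88% were called lower, and 22.6% of those at 6 and above. SNAR-B1 and SNAR-C1 each differed by -0.92 (± 0.126 and ± 0.131, SE, n = 3 arrays per group, limma adjusted p = 0.00012 and 0.00016), SNAR-D by -0.62 and SNAR-H by -0.52. Because the copies are nearly identical, their signals cannot be assigned to single genes. Of 21 genes in the annotation's class of other noncoding RNAs, 4 were higher and none lower. This share of 19.0% called was near the 19.8% of all genes. The 4 were small Cajal body RNAs, which guide the modification of spliceosomal RNAs: SCARNA7 (0.53), SCARNA9 (0.51), SCARNA22 (0.49) and SCARNA17 (0.44). Of 4 vault RNAs, 1 (25%) was called, VTRNA1-3, which was lower (-0.78). These genes were picked after their values were seen.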
